A study of Homo sapiens with 12 samples.

Results

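Stathmins and neuronal microtubule-associated proteins are 2 kinds of protein that act on microtubules in opposite ways. The genes described here are 10 in number, STMN1, STMN2, STMN3, STMN4, MAP1B, MAP2, MAPT, MAP6, DCX and DCLK1, taken by symbol from a table of 56609 gene symbols. Each symbol has an entry in the values of all 12 libraries of the study, also where no read was counted. The study sequenced RNA from A4573 and TC-71, established human lines of Ewing sarcoma (a cancer of bone and soft tissue in young people), and from a resistant derivative of each. The derivatives resist YK-4-279, a small molecule made against EWS-FLI1, the fused transcription factor that drives this cancer.

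The 4 groups hold 3 libraries each. A4573 parental and TC-71 parental cells were in the solvent DMSO, A4573-R cells were in YK-4-279, with 650 uM as the dose in the labels, and TC-71-R cells were in the compound at 400 uM. The doses are unusually high for this compound, and their unit is in doubt. All cells were grown in RPMI with serum and HEPES. Resistance and the presence of the compound go together in both derivatives and cannot be told apart. The labels do not say whether a derivative is a single clone, or whether replicate libraries came from different cultures. P-values set the difference of group means against how far libraries within groups differ, and part or all of that spread can be technical.

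Stathmins bind free tubulin dimers and promote the shrinking of microtubules, and phosphorylation of the protein during mitosis switches this activity off. STMN1 is found in most dividing cells, whereas STMN2, STMN3 and STMN4 are known from neurons. MAP1B, MAP2, tau (the product of MAPT), MAP6, doublecortin and DCLK1 bind along the microtubule and stabilise it, and are known mainly from axons, dendrites and migrating young neurons. Ewing sarcoma cells are poorly differentiated and often carry some neural transcripts.

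The libraries held 44.0 to 62.1 M reads on named genes (M, 1000000 reads). Values are CPM, counts per 1000000 reads as scaled by the authors, and 5 entries without a gene name, with 30.6% to 42.0% of the reads, count in that total. Of the 8 Ewing sarcoma markers, 7 were at 1 CPM or more in every group, and CD99 was at 0.0123 CPM or less in every group mean. The symbol CD99 has 2 entries, which were summed. Whether reads shared between them went uncounted was not tested, so absence of CD99 cannot be read from this value. Of 4 mature neuron markers, SLC17A6 had no read in any library, RBFOX3 stayed under 1 CPM, and SNAP25 was at 6.97 and 7.01 CPM in A4573 parental and A4573-R against 0.925 and 1.013 CPM in TC-71 parental and TC-71-R. The other marker, GAD1, went the other way, at 0.402 and 0.443 CPM in A4573 and at 1.23 and 2.15 CPM in TC-71, where it rose (limma adjusted p = 4.1e-06). Blood markers summed to at most 1.14 CPM. Epithelial markers summed to at most 1.81 CPM in A4573, and went from 21.4 to 22.4 CPM in TC-71 parental to 4.65 to 5.39 CPM in TC-71-R. Of 5 fibroblast markers, 4 or 5 were at 1 CPM or more in each group, with sums of 371 to 381 and 272 to 280 CPM in the A4573 parent and derivative and of 95.9 to 96.3 and 107 to 109 CPM in those of TC-71. Within the TC-71 sum, 4 markers rose in TC-71-R, among them DCN from 3.96 to 30.4 CPM and LUM from 3.99 to 15.1 CPM, and COL3A1 fell from 69.5 to 31.2 CPM. The part of these markers in the results was not tested. In bulk RNA, fewer cells with a transcript and less of it per cell cannot be told apart.

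Of the 10 genes, 8 reached 1 CPM in at least 3 libraries and were tested, whereas STMN2 and MAP6 did not. STMN4 passed this filter only through the TC-71 libraries and DCLK1 only through the A4573 libraries, so a difference between the lines was built into their selection. MAP2 passed through the TC-71 libraries and 2 of A4573-R, and would not have passed on the A4573 libraries alone. In A4573-R, 7 of the 8 tested genes rose (limma, adjusted p under 0.05), where 38.3% of all 14335 tested genes rose and 34.1% fell. STMN4 did not pass. In TC-71-R, 3 rose (STMN1, STMN3 and DCX), 3 fell (STMN4, MAP1B and MAP2), and MAPT and DCLK1 did not pass, where 38.8% of all tested genes rose and 39.6% fell. The 3 that rose in TC-71-R rose in A4573-R too, a combination met in 16.4% of all tested genes. Parental and resistant libraries did not overlap for 7 of the 8 genes in A4573 and for 6 in TC-71, against 74.6% and 81.1% of all tested genes. The median log2 fold change of the 8 genes on log2(CPM + 1) was 0.75 in A4573-R, against 0.02 over all tested genes, and -0.0018 in TC-71-R, against -0.0033 over all.

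**Figure D1:**
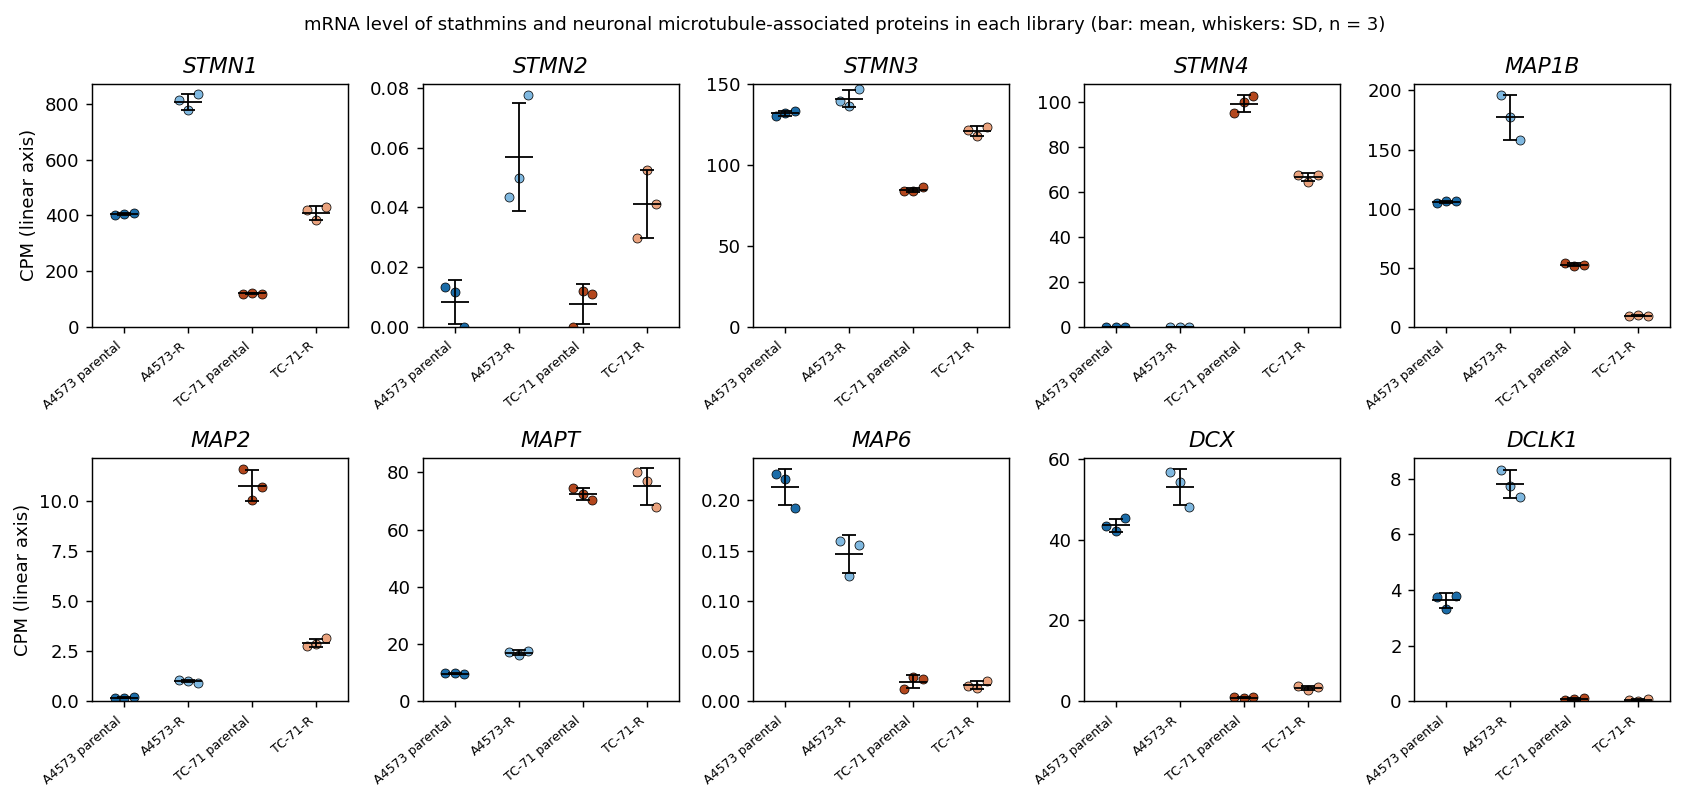
Level of each of the 10 genes in CPM (linear axis, one scale per gene) in every library, with points for libraries, bars for the mean and whiskers for the SD (n = 3). STMN1 is lowest in TC-71 parental (118 to 123 CPM), STMN4 is seen in TC-71 alone at this scale, and DCX is seen mostly in A4573.

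STMN1, which encodes stathmin itself, is annotated on the minus strand at chr1:25884181-25906991 (GRCh38, GENCODE release 29). It has several start sites. The RefSeq promoter table (GRCh38.p14) gives 250 bases before the start at position 25906419, of which the 203 bases that lie outside annotated exons of the gene are shown, because STMN1 rose in both resistant lines. Capitals mark CCAAT, a box found in many promoters of cell cycle genes.
STMN1, chr1:25906467-25906669, minus strand: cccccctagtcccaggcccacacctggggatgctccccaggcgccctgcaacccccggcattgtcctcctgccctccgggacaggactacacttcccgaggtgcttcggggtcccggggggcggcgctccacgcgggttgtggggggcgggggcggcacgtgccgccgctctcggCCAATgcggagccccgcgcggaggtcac
Nearer the start, 38 to 31 bases before it, stand letters of the kind bound by E2F factors, which act on genes of S phase and mitosis. They lie in the 47 bases of the window that belong to an annotated exon of STMN1, and are in capitals in these 30 bases.
STMN1, chr1:25906439-25906468, minus strand: acgtgcctctgTTTGGCGCttttgtgcgcg
The letters searched, on both strands, were TTTGGCGC and TTTCGCGC for E2F, the CCAAT box, the TATA box as TATAAA, and GGAAGGAA as a pair of the units that EWS-FLI1 binds. Of 34943 promoter windows of 250 bases, 0.956% held one of the E2F strings. The CCAAT box was in 32.0% of the windows, the TATA box in 10.8% and the paired unit in 3.07%. In the STMN1 window the CCAAT and E2F letters do not overlap, and its G and C content was 73.2%, against a median of 58.0% over all windows. The windows before the 2 other STMN1 starts, at 25906880 and 25906045, held none of the letters searched. Among the other genes with windows, TATA letters stood in windows of MAP1B and DCX, and CCAAT letters in windows of MAP2 and DCX. A match of letters describes the sequence and is not a measured binding site.

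STMN1 mRNA was at 400, 405 and 409 CPM in the A4573 parental libraries and at 814, 778 and 835 CPM in A4573-R. It was at 118, 123 and 120 CPM in TC-71 parental and at 419, 382 and 430 CPM in TC-71-R. Every resistant library was above every library of its parent. The rise was 2.00-fold in A4573 (log2 fold change 1.00, SE 0.043, limma adjusted p = 1.9e-11) and 3.42-fold in TC-71 (1.77, SE 0.043, adjusted p = 1.7e-14). The rise in TC-71 was the larger by 0.77 on the log2 scale (SE 0.061, adjusted p = 1.5e-08). The level in TC-71-R overlapped that of A4573 parental, so that A4573-R was highest, TC-71-R and A4573 parental were not separated by their ranges, and TC-71 parental was lowest.

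Proliferation genes moved with STMN1 in TC-71. All 10 genes of the proliferation list, among them MKI67, CCNB1 and CDK1, rose 2-fold or more in TC-71-R, as did 4.52% of all tested genes, and their summed level went from 401 to 416 CPM in TC-71 parental to 1131 to 1200 CPM in TC-71-R. In A4573-R, 5 of the 10 rose, 3 fell and 2 did not pass, and the sum went from 2121 to 2150 CPM to 2270 to 2372 CPM while STMN1 rose 2.00-fold. The part of proliferation in the STMN1 changes was not tested. Pseudogene copies of STMN1 took almost no reads, with STMN1P1 at 0.00437 CPM or less and STMN1P2 at 0 in every group.

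STMN3, a membrane-anchored stathmin of neurons, lies at chr20:63639705-63657682 on the minus strand. The 250 bases before its RefSeq start at 63652766 hold none of the letters searched and are 78.0% G and C. They are shown beside those of STMN1 as the promoter of the other stathmin that rose in both lines.
STMN3, chr20:63652767-63653016, minus strand: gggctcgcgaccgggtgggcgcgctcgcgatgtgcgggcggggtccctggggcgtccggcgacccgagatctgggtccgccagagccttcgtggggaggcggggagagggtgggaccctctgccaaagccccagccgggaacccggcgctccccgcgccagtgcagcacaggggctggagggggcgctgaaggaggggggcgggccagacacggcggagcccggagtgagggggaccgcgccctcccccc
STMN3 was at 130, 132 and 133 CPM in A4573 parental and at 139.6, 136 and 147 CPM in A4573-R. It was at 83.8, 83.7 and 86.0 CPM in TC-71 parental and at 121, 118 and 124 CPM in TC-71-R. In both lines the resistant libraries lay above the parental ones, narrowly so in A4573. The rise in TC-71-R was 1.43-fold (0.51, SE 0.034, limma adjusted p = 1.4e-09). In A4573-R it was 1.07-fold (0.10, SE 0.034, adjusted p = 0.019), and this call was lost without the first A4573 parental library (0.09, adjusted p = 0.067) and without the third A4573-R library (0.07, adjusted p = 0.085). The changes in the lines differed by 0.42 (SE 0.048, adjusted p = 1.1e-06).

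STMN4, a neuronal stathmin encoded on chromosome 8, was a transcript of TC-71 and close to absent from A4573. It was at 95.2, 100.2 and 102.5 CPM in TC-71 parental and at 67.7, 64.6 and 67.5 CPM in TC-71-R. In A4573 it was at 0.0399, 0.0233 and 0.0241 CPM in the parental libraries and at 0.0289, 0.09995 and 0.0775 CPM in A4573-R. These A4573 values rest on 7 and 16 reads in all, against 25526 and 16053 reads in the TC-71 parent and derivative. From the read totals, TC-71 parental was 3467-fold above A4573 parental (95% interval of the counts 1682 to 8624). The interval covers counting error only, and STMN4 passed the filter only through its TC-71 level. STMN4 fell 1.49-fold in TC-71-R (-0.57, SE 0.047, limma adjusted p = 1.9e-08). In A4573-R the change was 0.05 (SE 0.047, adjusted p = 0.31), and with a pseudocount of 0.25 in place of 1 it passed (0.19, adjusted p = 0.041). From the reads alone the A4573-R to parental ratio was 2.46 (95% interval 0.959 to 7.08).

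STMN2, known from growing axons and also encoded on chromosome 8, was close to absent. It had 1, 1 and 0 reads in the A4573 parental libraries and 3, 4 and 6 in those of A4573-R. It had 0, 1 and 1 reads in TC-71 parental libraries and 2, 4 and 4 in those of TC-71-R. Its highest value was 0.0775 CPM. The ratio of resistant to parental was 7.01 in A4573 (95% interval 1.59 to 64.0) and 5.33 in TC-71 (1.14 to 50.1), which covers counting error only. The 2 derivatives overlapped, as did the 2 parents.

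The stathmins can be set side by side per length of annotated exon. In CPM per kb, STMN1 led in A4573 parental (64.6 ± 0.688, SD, n = 3) and A4573-R (129 ± 4.58), with STMN3 next (43.4 ± 0.572 and 46.5 ± 1.81). TC-71 parental had another order, with STMN4 at 30.1 ± 1.15, STMN3 at 27.9 ± 0.443 and STMN1 at 19.1 ± 0.406 CPM per kb. In TC-71-R the order was that of A4573 for the first members, with STMN1 at 65.5 ± 4.02, STMN3 at 39.9 ± 0.946 and STMN4 at 20.2 ± 0.530. The share of STMN1 in the summed stathmin level per kb went from 59.8% to 73.5% on resistance in A4573 and from 24.8% to 52.1% in TC-71. That of STMN4 in TC-71 went from 39.1% to 16.1%. The sum itself went from 108 to 176 CPM per kb in A4573 and from 77.2 to 126 CPM per kb in TC-71. These orders and shares rest on all annotated exons, 6.261 kb for STMN1, 3.032 kb for STMN3 and 3.294 kb for STMN4. In CPM, without division by length, STMN1 led in TC-71 parental, at 119.9 against 99.3 for STMN4 and 84.5 for STMN3.

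**Figure D2:**
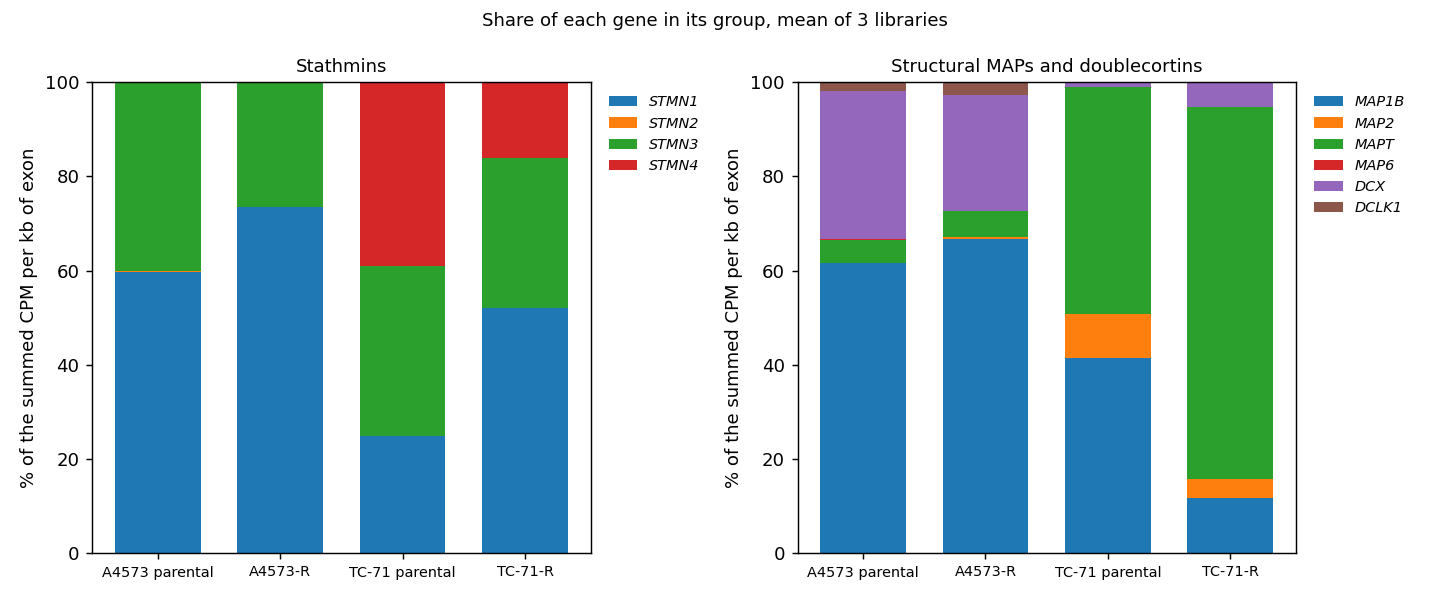
Share of each gene in the summed CPM per kb of exon of the stathmins (left) and of the MAPs and doublecortins (right), as the mean of 3 libraries, stacked to 100% in each group. STMN1 goes from 24.8% to 52.1% of the stathmin sum in TC-71, and MAPT from 48.3% to 79.1% of the other sum.

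MAP1B encodes a large microtubule-associated protein of growing axons and lies at chr5:72107234-72209570 on the plus strand. It was at 105, 106 and 106 CPM in A4573 parental and at 196, 177 and 158 CPM in A4573-R. In TC-71 parental it was at 53.9, 51.4 and 52.3 CPM, and in TC-71-R at 9.003, 9.98 and 9.09 CPM. The resistant libraries were all higher than their parents in A4573 and all lower in TC-71. The rise in A4573-R was 1.68-fold (0.74, SE 0.059, limma adjusted p = 2.3e-08), with the A4573-R libraries spread by a coefficient of variation of 10.7%. The fall in TC-71-R was 5.61-fold (-2.37, SE 0.059, adjusted p = 2.3e-14), a size reached by 0.781% of all tested genes. The difference of the changes was -3.11 (SE 0.084, adjusted p = 1e-13), a size reached by 0.663% of tested genes. MAP1B was higher in A4573 than in TC-71 by 2.01-fold among the parents and by 19.0-fold among the derivatives.

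MAP2, a protein of dendrites at chr2:209424058-209734118 on the plus strand, also moved in opposite directions. It was at 0.186, 0.140 and 0.193 CPM in A4573 parental and at 1.04, 1.02 and 0.930 CPM in A4573-R. In TC-71 parental it was at 11.6, 10.0 and 10.7 CPM, and in TC-71-R at 2.77, 2.85 and 3.17 CPM. The 4 groups did not overlap. The means differed 5.78-fold in A4573, where the log2 fold change on log2(CPM + 1) was 0.77 (SE 0.059, limma adjusted p = 1.2e-08) because that scale shrinks low values, and 2.53 by edgeR on reads. The fall in TC-71-R was 3.68-fold (-1.58, SE 0.059, adjusted p = 1.6e-12). The changes differed by -2.35 (SE 0.083, adjusted p = 1.5e-12). MAP1B and MAP2 were the 2 of 8 tested genes that rose in A4573-R and fell in TC-71-R, a combination met in 14.3% of all tested genes. MAP2, unlike MAP1B, was the higher in TC-71, by 62.4-fold among the parents and 2.93-fold among the derivatives. It would not have passed the filter without TC-71 libraries, which favoured this direction.

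MAPT encodes tau, a protein of axons, at chr17:45894382-46028334 on the plus strand. It was at 9.71, 9.73 and 9.47 CPM in A4573 parental and at 17.2, 16.1 and 17.7 CPM in A4573-R. It was at 74.5, 72.4 and 70.2 CPM in TC-71 parental and at 80.2, 76.9 and 68.0 CPM in TC-71-R. The groups of A4573 were separate and those of TC-71 overlapped. The rise in A4573-R was 1.76-fold (0.76, SE 0.053, limma adjusted p = 4.6e-09). In TC-71-R the change was 0.05 (SE 0.053, adjusted p = 0.41). It came to -0.00028 without the first TC-71-R library (adjusted p = 1), and it passed at 0.12 without the third (adjusted p = 0.029). The changes differed by -0.71 (SE 0.075, adjusted p = 4.4e-07). The antisense gene MAPT-AS1 shares 75 exon bases with MAPT, 0.503% of its exon length, and was at 1.79 and 1.31 CPM in the TC-71 parent and derivative and at 0.00482 CPM or less in A4573. The sources used here do not say whether reads were counted by strand, so reads on the shared bases cannot be assigned.

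MAP6, a protein that protects microtubules from cold, was near the floor of detection, at chr11:75586918-75669120 on the minus strand. It was at 0.226, 0.221 and 0.193 CPM in A4573 parental and at 0.159, 0.125 and 0.155 CPM in A4573-R, which is 52 and 33 reads in all. TC-71 parental and TC-71-R had 5 and 4 reads in all. Among the parents A4573 was 10.9-fold above TC-71 by reads (95% interval of the counts 4.40 to 35.1). Within A4573, the parental to resistant ratio of 1.46 had an interval of 0.927 to 2.33.

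DCX encodes doublecortin, a marker of migrating young neurons, and lies at chrX:111293779-111412429 on the minus strand. It was at 43.4, 42.1 and 45.2 CPM in A4573 parental and at 56.6, 54.2 and 48.1 CPM in A4573-R. It was at 0.954, 0.833 and 0.943 CPM in TC-71 parental and at 3.72, 2.79 and 3.40 CPM in TC-71-R. No 2 of the 4 groups overlapped. DCX rose 1.22-fold in A4573-R (0.27, SE 0.074, limma adjusted p = 0.0038) and 3.63-fold in TC-71-R (1.17, SE 0.074, adjusted p = 8.9e-10; 1.84 by edgeR on reads). The changes differed by 0.89 (SE 0.105, adjusted p = 1.4e-06). A4573 remained above TC-71, by 47.9-fold among the parents and 16.04-fold among the derivatives.

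DCLK1 encodes a kinase with the tubulin-binding domains of doublecortin and lies at chr13:35768652-36131306 on the minus strand. One of its RefSeq starts is at 36131382, and the 250 bases before it, free of annotated exons of the gene and of all letters searched, are 68.8% G and C. They are shown as the promoter of the doublecortin relative whose mRNA was far higher in A4573.
DCLK1, chr13:36131383-36131632, minus strand: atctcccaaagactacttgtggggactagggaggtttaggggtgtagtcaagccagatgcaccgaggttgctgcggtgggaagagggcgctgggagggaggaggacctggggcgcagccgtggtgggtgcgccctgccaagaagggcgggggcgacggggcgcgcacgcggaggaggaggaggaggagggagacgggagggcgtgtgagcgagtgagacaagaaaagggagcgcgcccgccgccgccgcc
DCLK1 was at 3.75, 3.33 and 3.79 CPM in A4573 parental and at 8.33, 7.76 and 7.34 CPM in A4573-R. It was at 0.0477, 0.0966 and 0.111 CPM in TC-71 parental and at 0.0296, 0.0262 and 0.0825 CPM in TC-71-R, which is 22 and 12 reads in all. The A4573 groups were separate and the TC-71 groups overlapped. The rise in A4573-R was 2.16-fold (0.93, SE 0.058, limma adjusted p = 1.1e-09). In TC-71-R the change was -0.05 (SE 0.058, adjusted p = 0.41), and the ratio of the reads was 0.582 (95% interval 0.262 to 1.23). The changes differed by -0.98 (SE 0.081, adjusted p = 2.6e-08). With so few reads in TC-71, the change there is held small on log2(CPM + 1). This difference therefore describes mainly the rise in A4573-R.

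**Figure D3:**
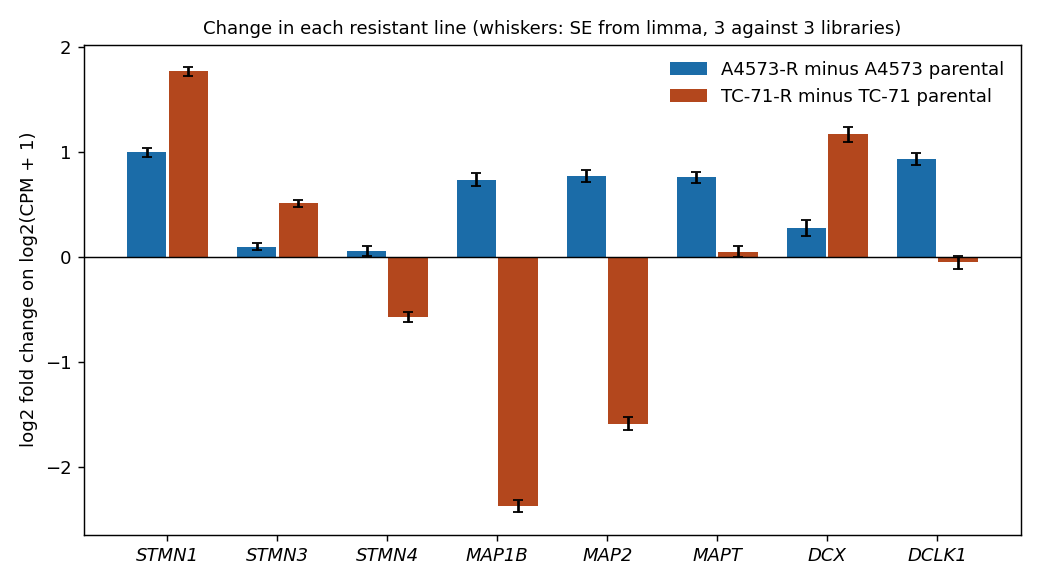
Log2 fold change on log2(CPM + 1) of the 8 tested genes in A4573-R against A4573 parental and in TC-71-R against TC-71 parental, with the SE from limma as whiskers (3 against 3 libraries). MAP1B (0.74 and -2.37) and MAP2 (0.77 and -1.58) point in opposite directions, and STMN1 (1.00 and 1.77) rises in both.

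Per kb of exon, the stabilising proteins were led by MAP1B in A4573 (8.37 ± 0.0659 CPM per kb in the parent and 14.0 ± 1.51 in A4573-R), followed by DCX (4.27 ± 0.154 and 5.19 ± 0.429). In TC-71 parental MAPT (4.85 ± 0.143) and MAP1B (4.16 ± 0.1001) were close, and in TC-71-R MAPT stood at 5.03 ± 0.424 and MAP1B at 0.741 ± 0.0427 CPM per kb. The share of MAPT in the summed level of the 6 genes went from 48.3% to 79.1% in TC-71, and that of MAP1B from 41.4% to 11.7%. In A4573 the share of MAP1B was 61.6% and 66.7%, and that of DCX 31.4% and 24.7%. The sum rose from 13.6 to 21.0 CPM per kb in A4573 and dropped from 10.04 to 6.35 CPM per kb in TC-71. Exon lengths are those of all annotated exons of a gene, so a level per kb is low where a cell uses a short form.

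Besides STMN4 and DCLK1, whose difference between the lines the filter built in, the other 6 tested genes all differed between the parents and between the derivatives, where 89.9% and 89.2% of all tested genes differed. MAP2, among these 6, had too few A4573 libraries at 1 CPM or more to pass without TC-71. Its difference between the lines was thus favoured by the filter too. STMN4, MAP2 and MAPT were higher in TC-71, and STMN1, STMN3, MAP1B, DCX and DCLK1 were higher in A4573, in both comparisons. These comparisons share no libraries with each other. The changes on resistance differed between the lines for these 6 genes, where 78.1% of all tested genes differed. They did for STMN4 and DCLK1 too, but a line with almost no reads of a gene holds its change near 0 on log2(CPM + 1). In fold terms, the difference between the lines was smaller among the derivatives for STMN1 (3.38 to 1.97), STMN3 (1.56 to 1.16), STMN4 (3415 to 968), MAP2 (62.4 to 2.93), MAPT (7.51 to 4.42) and DCX (47.9 to 16.04). It was larger for MAP1B (2.01 to 19.0) and DCLK1 (42.6 to 169). The folds of STMN4 rest on 7 and 16 reads in the A4573 parent and derivative, and those of DCLK1 on 22 and 12 in those of TC-71. How often the difference was smaller over all tested genes was not computed.

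The other proteins of microtubules moved in both directions. The counts of the lists below stand against 38.3% of all tested genes that rose and 34.1% that fell in A4573-R, and 38.8% and 39.6% in TC-71-R, and several lie near these shares. Of 16 end-binding and tip proteins, 7 rose and 3 fell in A4573-R, and 5 rose and 8 fell in TC-71-R. CLIP1, a linker at growing ends, rose from 10.8 ± 0.539 to 21.5 ± 0.782 CPM in A4573-R and fell from 58.6 ± 0.838 to 17.6 ± 0.903 CPM in TC-71-R (limma adjusted p = 8.6e-11 and 5.6e-14), the directions of MAP1B and MAP2. CLIP2 rose from 2.61 ± 0.0513 to 13.3 ± 0.438 CPM in A4573-R, and MAPRE3, an end-binding protein, rose from 4.19 ± 0.113 to 11.4 ± 0.668 CPM in TC-71-R. Of 8 tested structural MAPs outside the 10 genes, 4 rose and 3 fell in A4573-R, and 1 rose and 5 fell in TC-71-R. Their median log2 fold change was 0.04 in A4573-R, where that of the 8 tested stathmins, MAPs and doublecortins was 0.75. MAP7D3, which recruits kinesin, fell from 39.1 ± 1.24 to 18.8 ± 0.1002 CPM in A4573-R, and MAP4, the general MAP of non-neuronal cells, fell from 248 ± 4.35 to 208 ± 1.90 CPM in TC-71-R.

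Among the collapsin response mediator proteins, which bind tubulin dimers in growing axons, 4 of 5 rose and 1 fell in A4573-R, and 3 rose and 2 did not pass in TC-71-R, where 38.3% and 38.8% of all tested genes rose. CRMP1 rose from 40.9 ± 0.850 to 172 ± 6.53 CPM in A4573-R (2.04, SE 0.047, limma adjusted p = 1.8e-14) and DPYSL5 from 1.47 ± 0.140 to 18.8 ± 2.36 CPM in TC-71-R (3.00, SE 0.080, adjusted p = 4.1e-14). Like DCX and DCLK1, DPYSL4 and DPYSL5 were far lower in TC-71 parental than in A4573 parental, at 0.00402 and 1.47 CPM against 42.3 and 92.4 CPM. Of 12 neuronal cytoskeleton and synapse genes, 4 rose and 3 fell in A4573-R, and 5 rose and 5 fell in TC-71-R, shares near those of all tested genes (38.3% and 34.1%, and 38.8% and 39.6%). The neuronal beta-tubulin TUBB3 and the neuronal enolase ENO2 rose in A4573-R, the latter from 7.85 ± 0.269 to 56.4 ± 1.88 CPM. ENO2 fell in TC-71-R, from 78.3 ± 1.62 to 57.3 ± 2.41 CPM. The 3 that fell in A4573-R were NEFL (27.6 to 14.0 CPM), PRPH (4.89 to 0.639 CPM) and GAP43 (9.77 to 7.25 CPM). In TC-71-R the heavy neurofilament NEFH rose from 173 ± 0.959 to 328 ± 11.9 CPM while the light neurofilament NEFL fell from 18.2 ± 0.288 to 5.81 ± 0.545 CPM.

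Of 8 genes of tubulin modification, 6 rose and 2 did not pass in each resistant line. Of all tested genes, 38.3% rose and 34.1% fell in A4573-R, and 38.8% rose and 39.6% fell in TC-71-R. The other counts of this paragraph stand against these shares too. HDAC6, which deacetylates tubulin, rose from 46.0 ± 0.228 to 68.4 ± 0.695 CPM in A4573-R, and TTL, which adds back the terminal tyrosine of alpha-tubulin, rose from 167 ± 1.32 to 242 ± 5.75 CPM in TC-71-R. Of 11 tested kinases and kinase activators that act on stathmins and MAPs, 6 rose and 4 fell in A4573-R, and 6 rose and 3 fell in TC-71-R. MARK1, which phosphorylates tau, MAP2 and MAP4, fell from 14.3 ± 0.461 to 5.35 ± 0.239 CPM in TC-71-R, and CDK5, a tau kinase of neurons, rose from 10.6 ± 0.132 to 24.9 ± 1.20 CPM. MAPK8, a kinase of stathmin and MAPs, fell from 37.8 ± 1.98 to 23.5 ± 1.13 CPM in A4573-R. Of 6 severing proteins, 2 rose and 1 fell in A4573-R, where the katanin subunit KATNA1 rose from 20.8 ± 0.0981 to 49.4 ± 2.11 CPM, and 4 rose and 1 fell in TC-71-R. Of 3 dynein partners, 1 rose and 2 fell in A4573-R, and 1 fell in TC-71-R. PAFAH1B1, which like DCX is known from neuronal migration, fell in both, from 205 ± 4.59 to 152 ± 5.98 CPM and from 98.1 ± 0.537 to 84.4 ± 2.79 CPM. Of 6 tested regulators of neuronal RNA, 1 rose and 4 fell in each line, and REST, a repressor of neuronal genes, fell from 32.4 ± 0.927 to 26.2 ± 1.43 CPM in TC-71-R. REST did not pass in A4573-R (-0.08, limma adjusted p = 0.2). The 1 that rose in TC-71-R was PTBP1, from 266 ± 4.26 to 335 ± 5.63 CPM.

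**Figure D4:**
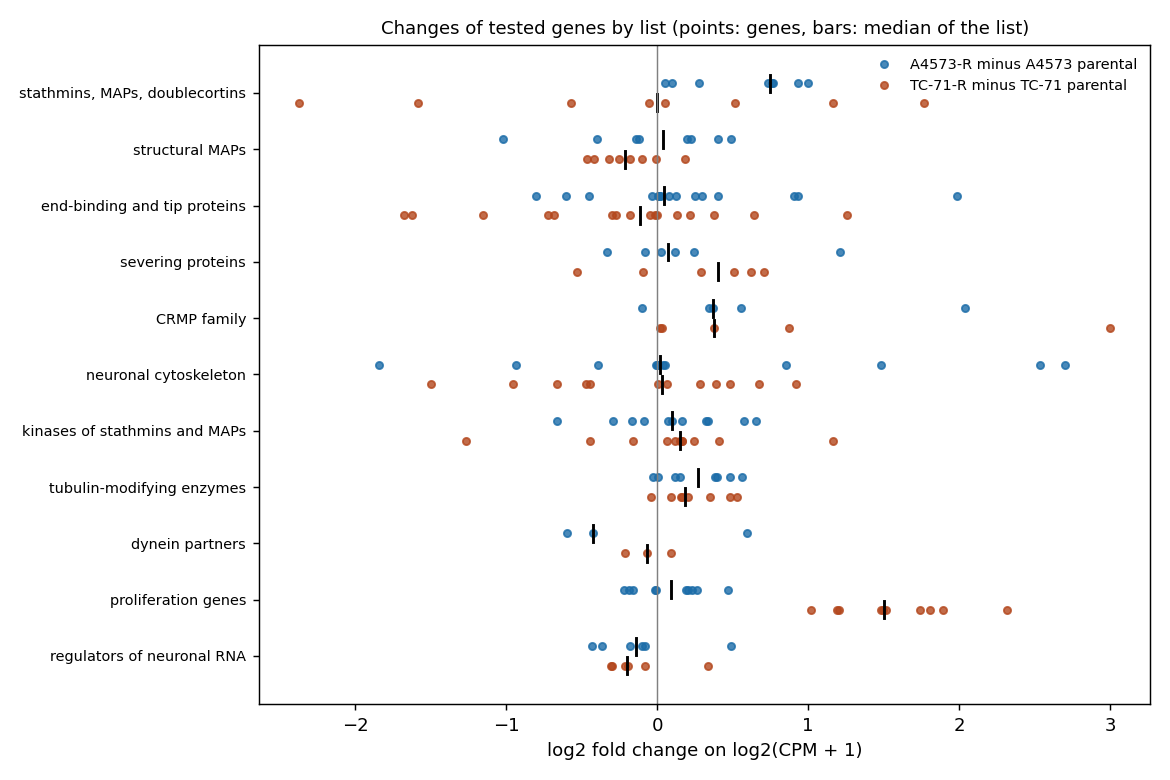
Log2 fold change on log2(CPM + 1) of every tested gene of the 10 genes described and of 10 further gene lists, for each resistant line against its parent (points are genes, black bars the median of a list). The stathmins, MAPs and doublecortins have a median of 0.75 in A4573-R and -0.0018 in TC-71-R, and the proliferation genes one of 1.503 in TC-71-R.

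For each of the 7 genes whose highest and lowest group means differ by 2 or more on log2(CPM + 1), the 3 most similar profiles over the 12 libraries were sought among all tested genes. Pearson's r lay at 0.997 or above throughout, and because the 12 libraries form 4 tight groups it mainly compares 4 levels. The nearest to STMN1 were HSPA12A, TAGLN2 and the cell cycle phosphatase CDKN3, the last at 17.0 and 29.6 CPM in the A4573 parent and derivative and at 5.03 and 16.7 CPM in those of TC-71. The nearest to MAP1B were ZNF160, STC1 and TM7SF3, with STC1 at 12.8, 21.4, 5.74 and 0.297 CPM in the same order. MAP2 was nearest to LONRF2, GPAT3 and IL12RB2, and MAPT to JAG2, LYPD1 and CASKIN1. STMN4 was nearest to C9orf64, SLC43A3 and SYNPR, and DCLK1 to CACNA2D3, AMN and ADA2. DCX was nearest to ZNF43, FOXM1 and L1CAM, the last an adhesion molecule of axons at 74.6, 83.4, 0.527 and 3.70 CPM.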

How the data were processed

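RNA of 12 libraries was read as paired ends. Trimmomatic, STAR 2.4, HTSeq and edgeR and the GRCh38 build are named per the submitters' processing notes; the annotation and strand setting are not given in the sources used here. The deposited signal is CPM on scaled library sizes (scaling factors 0.894 to 1.06). Divided by its smallest step, each column gives whole numbers (100% within 0.001), used as reads. The 58288 named entries include 1932 that share 253 symbols and were summed. Genes at 1 CPM or more in at least 3 libraries were tested with limma 3.58.1 in R 4.3.3 on log2(CPM + 1), with a mean for each of 4 groups and Benjamini-Hochberg adjustment over 14335 genes. Exact tests of 3 against 3 libraries cannot go below 0.1. Intervals of read ratios are exact and cover counting error only.

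The 10 genes and the lists (90 genes in 10 lists, 25 markers in 5) were chosen with earlier results of these data known. Beyond the 10 genes, up to 3 genes per list were named, by size of change among those past the threshold with a mean of 5 CPM or more and no overlap of libraries, and not all of them are given. Alternatives were a pseudocount of 0.25, no filter, a mean of 5 CPM or more, TMM and median-of-ratios scaling, edgeR 4.0.16 and DESeq2 1.42.0 on reads, a fit of the groups compared, a replicate block, and each library left out. The limma and edgeR fits were run on simulated data with changes set in A4573-R alone. Genes with few reads and the difference of the changes were not covered. Positions come from GENCODE release 29. Promoter windows come from a RefSeq table and were kept for 6 of the 10 genes. Any window of these genes on chromosome 8, where STMN2 and STMN4 lie, was left out.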

Additional observations from a re-analysis of the deposited data

Results flagged for a closer look

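The change on resistance differed between the lines, by the limma test of the difference itself, for 6 tested genes (STMN1, STMN3, MAP1B, MAP2, MAPT and DCX), and for STMN4 and DCLK1 with a limit given below. As the change in TC-71-R minus that in A4573-R on log2(CPM + 1), it was 0.77 for STMN1 (adjusted p = 1.5e-08), 0.42 for STMN3 (adjusted p = 1.1e-06) and 0.89 for DCX (adjusted p = 1.4e-06), which rose more in TC-71-R. It was -3.11 for MAP1B (adjusted p = 1e-13) and -2.35 for MAP2 (adjusted p = 1.5e-12), which rose in A4573-R and fell in TC-71-R. It was -0.71 for MAPT (adjusted p = 4.4e-07), which rose in A4573-R. It was -0.62 for STMN4 (adjusted p = 4.4e-07) and -0.98 for DCLK1 (adjusted p = 2.6e-08), but STMN4 has 7 and 16 reads in the A4573 groups and DCLK1 has 22 and 12 in the TC-71 groups, so their change in that line is held near 0 on log2(CPM + 1), and these values describe mainly the change in the other line. Of all tested genes, 78.1% differed in this way.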

How the results depend on the processing

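The calls of STMN1, MAP1B, MAP2 and DCX kept their direction and stayed past the threshold in every comparison and alternative in which they were tested. STMN4 in A4573-R passed with a pseudocount of 0.25 (0.19). STMN3 in A4573-R missed the threshold without A4573 parental replicate 1 (0.09) or A4573-R replicate 3 (0.07), and MAPT in TC-71-R came to -0.00028 without replicate 1 and passed without replicate 3 (0.12); the cause was not tested. With no filter, 1 of the 10 genes was lower in A4573-R, MAP6 (-0.08, adjusted p = 0.00062), and STMN2 was higher in A4573-R and TC-71-R. With a mean of 5 CPM or more, 6 of the genes were left to test and 3 had the more negative change in TC-71-R. On reads, edgeR gave larger log2 changes for genes with few CPM, such as -7.27 against -3.07 for DCLK1 between the derivatives and 11.68 against 6.61 for STMN4 between the parents. A fit of only the groups compared was not run for the difference of the changes, which needs all 4. Leaving out a library gave 9807 to 10632 genes past the threshold in A4573-R and 10790 to 11410 in TC-71-R. Same-numbered libraries did not deviate together (r -0.0974 to 0.165 over 18 pairs, 2 over 0.1). No pairing by number was seen, but so few libraries per group cannot exclude it. A replicate block gave 10422 genes in A4573-R and 11285 in TC-71-R, against 10389 and 11248, with 7 and 3 of the 10 genes higher as before. Of 12 libraries, 4 correlated best with their own number. With 2 to 52 reads per group, STMN2, MAP6 and, in A4573, STMN4 are limited by depth.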
